A study of Mus musculus with 91 samples.

Results

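A set of 10 genes known for their part in pluripotency, Pou5f1, Nanog, Utf1, Eras, Otx2, L1td1, Sall4, Klf4, Esrrb and Zfp42, was followed through single cells of the mouse caudal lateral epiblast. The members were chosen by name, as 10 of the 53379 genes in the count table. The cells were wild-type cells of the MF1 strain, an outbred mouse stock, taken at the early headfold stage, at about embryonic day 8.0. The dissected region flanks the rear edge of the node and the front part of the primitive streak. It holds axial progenitors, among them neuromesodermal progenitors, together with some nascent mesoderm. Descent between the cells was not measured. Cells of 1 pool of embryos were sorted singly and turned into full-length cDNA libraries by Smart-seq2, with neither a perturbation nor a second genotype in the comparison. The embryo of each cell is not named in the labels, so the 91 cells form 1 sample, no test between cells was made, and each SD describes the spread between cells.

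Pluripotency is the capacity of a cell to give rise to every tissue of the embryo proper. It is held by a network of transcription factors centred on Pou5f1 (OCT4), Nanog and Sox2. In the naive state of the preimplantation epiblast and of mouse embryonic stem cells these act with Klf4, Esrrb and Zfp42 (REX1), whereas after implantation the naive genes are shut off, Otx2 comes to mark the formative and then the anterior epiblast, and Pou5f1 and Nanog persist in the posterior epiblast until somites form. Utf1 is a chromatin-associated factor of pluripotent cells, Eras a constitutively active relative of Ras found in embryonic stem cells, L1td1 an RNA-binding protein derived from a transposon, and Sall4 a zinc finger factor that binds OCT4 and stays on in many progenitors of the embryo.

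Promoter windows of the 250 bases before the start site were taken from RefSeq for GRCm38.p6, where 9 of the 10 members had an entry. The windows were searched on both strands for a POU core, ATGCAAA, the part of the OCT4 and SOX2 composite site that OCT4 reads, and for a SOX core, ACAATG. The POU core stood in 1096 of 27025 windows (4.06%) and the SOX core in 2969 (11%). Nanog, Eras and Zfp42 were the members with a match, and their windows are shown for that reason, with the matches in capitals and each read 5′ to 3′ on the strand of the gene. The window of Nanog is chr6:122707239-122707488 on the plus strand, that of Eras chrX:7928608-7928857 on the minus strand and that of Zfp42 chr8:43307010-43307259 on the minus strand.
Nanog: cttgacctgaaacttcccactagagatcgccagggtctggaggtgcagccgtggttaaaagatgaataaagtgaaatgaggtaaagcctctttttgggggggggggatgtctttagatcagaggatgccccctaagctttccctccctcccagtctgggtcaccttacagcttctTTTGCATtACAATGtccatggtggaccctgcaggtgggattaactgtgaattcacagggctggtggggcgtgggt
Eras: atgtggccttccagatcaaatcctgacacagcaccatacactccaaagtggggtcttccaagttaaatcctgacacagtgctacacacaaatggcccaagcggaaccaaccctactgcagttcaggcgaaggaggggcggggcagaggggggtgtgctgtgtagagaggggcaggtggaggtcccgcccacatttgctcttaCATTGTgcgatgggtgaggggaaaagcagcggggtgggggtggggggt
Zfp42: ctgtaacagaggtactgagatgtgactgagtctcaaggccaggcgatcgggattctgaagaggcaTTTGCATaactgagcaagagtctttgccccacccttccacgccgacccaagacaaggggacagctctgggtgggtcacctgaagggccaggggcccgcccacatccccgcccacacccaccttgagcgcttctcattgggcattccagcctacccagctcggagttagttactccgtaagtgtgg
In Nanog the reverse complement of the POU core ran from base -75 to base -69 and was followed by the SOX core from base -67 to base -62. This order with at most 3 bases between was written down from the Nanog site itself and occurred in 1 of the 27025 windows, that of Nanog. Eras had the SOX core alone, at bases -48 to -43, and Zfp42 the POU core alone, at bases -185 to -179. A match describes letters only, and binding was not measured in these cells.

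A cell was called epiblast-like where the CPM of Nkx1-2, a homeobox gene of caudal progenitors, was above that of Aldh1a2, which makes retinoic acid in the presomitic mesoderm, and mesoderm-like otherwise. CPM are the counts of a cell divided by its total and multiplied by 1000000. The rule gave 43 epiblast-like cells (47.3%, 95% Clopper-Pearson interval 36.7 to 58%, for counting error only) and 48 mesoderm-like cells. Most of the paraxial mesoderm beneath had been cut away in the dissection, so this share does not describe the make-up of the region. The cells nearest to the boundary were B10, named here like all cells by its well, with 688 CPM of Nkx1-2 and 570 CPM of Aldh1a2, and on the other side G3 with 164 and 301 CPM. The next epiblast-like cell, D7, was already at a log2 ratio of 7.68, and 1 epiblast-like and 3 mesoderm-like cells in all lay within 4-fold of the boundary. Leaving out the genes of the rule, 6 of 7 epiblast markers (Wnt8a, Cdh1, Epcam, Sox2, Esrp1 and Cldn7) had a mean CPM + 1 at least 2-fold higher in the epiblast-like class and Pou3f1 differed by less, and 7 of 7 mesoderm markers (Tbx6, Msgn1, Dll1, Hes7, Meox1, Pdgfra and Fn1) were lower in it. These lists were chosen with earlier results of the same cells known, so they describe the classes and are not an independent check of them. Total counts were 1260653 to 3927737 (median 2450073) in epiblast-like and 709866 to 4439571 (median 2589802) in mesoderm-like cells, so depth was similar. All 12 genes chosen from other organs stayed at 0 reads, over 516 gene and cell pairs of epiblast-like and 576 of mesoderm-like cells. Genes without a read in any cell cannot show reads passed between wells, so they set no background for expressed genes. Sox2 had a read in 26 of 48 mesoderm-like cells but at least 5 reads in 3. Aldh1a2 had a read in 15 of 43 epiblast-like cells and at least 5 in 2. Sox3, in contrast, was read in 30 of 43 epiblast-like and 0 of 48 mesoderm-like cells. The part of stray reads in detection at 1 read was not tested.

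Of the 10 members, 9 were measured, which means at least 1 read in at least 3 cells, and 5 of them reached the 2-fold threshold with a higher mean in the epiblast-like class: Nanog, Utf1, Eras, L1td1 and Sall4. Otx2 and Klf4 were at least 2-fold lower, and Pou5f1 and Zfp42 differed by less. Esrrb, with reads in 1 cell, was not measured. Over all 18054 measured genes, 8.18% were called higher and 9.55% lower by the same rule, with a median log2 ratio of 0.01, while that of the 9 measured members was 1.23. The members, like the marker lists, were chosen with earlier results of these cells known, so this contrast is a description only. The median epiblast-like cell had reads of 5 of the 10 members and the median mesoderm-like cell of 3.

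**Figure D1:**
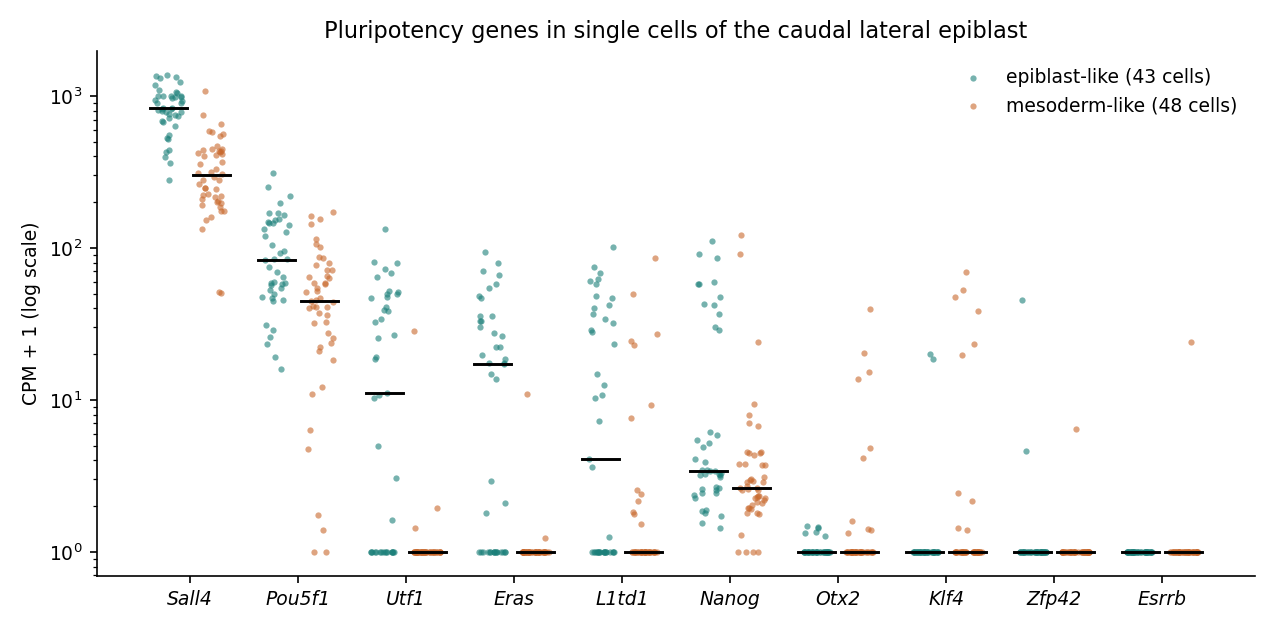
CPM + 1 of each of the 10 genes, on a log axis, in 43 epiblast-like and 48 mesoderm-like cells. Each point is a cell, the black bar is the median of the class, and points at 1 are cells without a read. Sall4 and Pou5f1 formed continuous clouds, Utf1, Eras, L1td1 and Nanog fell into cells with much and cells with little or none, and Otx2, Klf4, Zfp42 and Esrrb rose above the floor in at most 10 cells of a class.

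Sall4 (chr2:168748332-168767943, minus strand) and Pou5f1 (chr17:35506018-35510772, plus strand) were the members present throughout the epiblast-like class. Sall4 ranged from 279 to 1382 CPM in epiblast-like cells, with a median of 833 CPM and a mean of 850 ± 274 CPM (SD over 43 cells). In mesoderm-like cells it ranged from 49.4 to 1080 CPM, with a median of 300 CPM and a mean of 339 ± 189 CPM (SD over 48 cells), a log2 ratio of 1.32. The classes overlapped, although 22 mesoderm-like cells lay below the lowest epiblast-like cell and 7 epiblast-like cells above the highest mesoderm-like cell. Sall4 was thus lower in mesoderm-like cells without being absent, and it had reads in all 91 cells.

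Pou5f1 ranged from 15 to 311 CPM in epiblast-like cells, with a median of 82 CPM and a mean of 98.6 ± 66.8 CPM. In mesoderm-like cells the range was 0 to 172 CPM, the median 44 CPM and the mean 53.5 ± 42.4 CPM, with reads in 46 of 48 cells. The log2 ratio of 0.87 stayed under the 2-fold rule and most of the 2 clouds coincided, with 8 mesoderm-like cells below the lowest epiblast-like cell. At least 10 CPM of Pou5f1 were found in 43 of 43 epiblast-like and 41 of 48 mesoderm-like cells. Pou5f1 transcripts thus extended through most of the mesoderm-like class. Of the annotated copies of Pou5f1 that were in the table, Pou5f1-rs4 had 16 reads in 11 cells and 2 others had none.

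Utf1 and Eras were present in part of the epiblast-like cells and nearly missing from mesoderm-like cells. Utf1 (chr7:139943789-139945112, plus strand) ranged from 0 to 132 CPM in epiblast-like cells, with a median of 10.1 CPM, a mean of 25.3 ± 30.5 CPM and reads in 27 of 43 cells. In mesoderm-like cells 3 of 48 had a read, the median was 0, the highest value 27.2 CPM and the mean 0.596 ± 3.93 CPM, with 95.2% of the class total of CPM in well C11. The log2 ratio was 4.04, and 17 epiblast-like cells lay above every mesoderm-like cell.
Eras (chrX:7924276-7928607, minus strand) ranged from 0 to 93.3 CPM in epiblast-like cells, with a median of 16.1 CPM, a mean of 20.6 ± 24.7 CPM and reads in 27 of 43 cells. In mesoderm-like cells 2 of 48 had a read, the median was 0, the highest value 10 CPM and the mean 0.214 ± 1.45 CPM, a log2 ratio of 4.15. The 24 epiblast-like cells with at least 10 CPM all lay above every mesoderm-like cell. Its exons share 135 of 1077 bases with the antisense gene Pcsk1n, which had reads in 28 epiblast-like and 5 mesoderm-like cells, and since the strand setting of the counting is not given, reads of that stretch cannot be told apart.

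L1td1 (chr4:98726734-98738480, plus strand) had the same uneven form and was read in more mesoderm-like cells. In epiblast-like cells it ranged from 0 to 100 CPM, with a median of 3.09 CPM, a mean of 19.2 ± 25.9 CPM and reads in 24 of 43 cells. In mesoderm-like cells the range was 0 to 85.3 CPM, the median 0 and the mean 4.72 ± 14.9 CPM, with reads in 13 of 48 cells and a log2 ratio of 1.82. The groups overlapped, since only 1 epiblast-like cell exceeded the highest mesoderm-like cell. That cell was G3, the mesoderm-like cell nearest to the boundary of the classes.

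Nanog (chr6:122707489-122714633, plus strand) had a read in 43 of 43 epiblast-like and 44 of 48 mesoderm-like cells, yet most of these cells held few. Reads per cell left a gap, with 75 cells at 0 to 14 reads and 16 cells at 28 to 345 reads. In the epiblast-like class 31 cells had 1 to 12 reads (median 5) and 12 cells had 53 to 223 reads (median 132). These 12 cells, 27.9% of the class (15.3 to 43.7%), held 90.6% of its Nanog reads, at 56.6 ± 25.8 CPM against 2.19 ± 1.25 CPM in the other 31.
In the mesoderm-like class 44 cells had 0 to 14 reads and 4 cells, 8.33% (2.32 to 20%), had 28 to 345. The gap was in reads and was less clear in CPM. Of these 4 cells E11, with 28 reads, had 8.41 CPM, near the 6.98 CPM of A5 with 10 reads. E11 therefore falls under the level of 10 CPM used further on. Detection at 1 read thus held for nearly every cell of both classes and did not tell them apart. The low level was alike in both classes, 2.19 ± 1.25 CPM and 1.93 ± 1.53 CPM, and within the cells at 14 reads or fewer the number of reads did not follow depth, with a Spearman rho with total counts of 0.05 over 31 epiblast-like cells and 0.09 over 44 mesoderm-like cells. The high and the low cells were of similar median depth, with 2285232 and 2454452 counts in the epiblast-like class. Its shallowest cells, A1 and D5, were both high. The pseudogenes Nanog-ps1 and Nanog-ps2 had 0 reads.
Over whole classes Nanog averaged 17.4 ± 28 CPM (range 0.445 to 110, median 2.42) in epiblast-like and 6.82 ± 21.3 CPM (range 0 to 121, median 1.63) in mesoderm-like cells, a log2 ratio of 1.23. Neither mean describes a typical cell of its class.

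**Figure D2:**
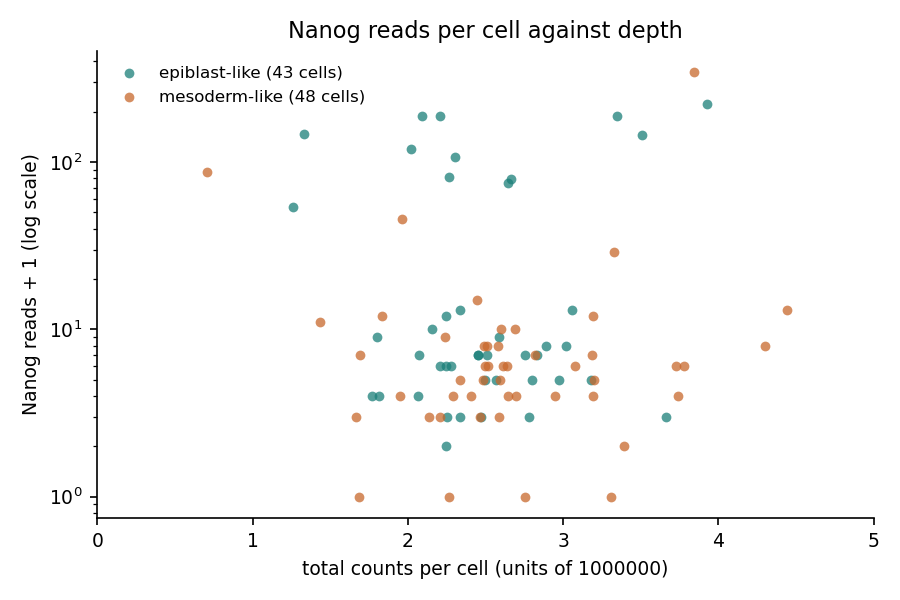
Nanog reads + 1 per cell, on a log axis, against total counts per cell in units of 1000000, with 1 point for each of 43 epiblast-like and 48 mesoderm-like cells. A band of 75 cells at 0 to 14 reads lies below 16 cells at 28 to 345 reads, of which 12 are epiblast-like. The lower band runs from 1431728 counts (A5) to 4439571 (D4) and the upper from 709866 (D6) to 3927737 (G12). The shallowest cells, D6, A1 and D5, are in the upper band.

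The naive genes and Otx2 were found in single cells. Klf4 (chr4:55527143-55532466, minus strand), a Krüppel-like factor of naive cells that later acts in epithelia and vessels, had reads in 2 of 43 epiblast-like cells, with 43 and 52 reads, and in 10 of 48 mesoderm-like cells. Its mean was 0.852 ± 3.91 CPM in epiblast-like cells (range 0 to 19.1, median 0) and 5.18 ± 14.9 CPM in mesoderm-like cells (range 0 to 68.3, median 0), a log2 ratio of -1.74. The mesoderm-like value rested on 6 cells with at least 10 CPM.
Otx2 (chr14:48657677-48673819, minus strand), the homeobox gene of the formative and anterior epiblast, had 1 read in each of 6 epiblast-like cells, at most 0.485 CPM. In mesoderm-like cells it ranged from 0 to 38.9 CPM, with a median of 0 and a mean of 1.96 ± 6.69 CPM, and 4 of 48 cells had at least 10 CPM. No epiblast-like cell reached 5 reads (0 of 43, up to 8.22%), while 6 mesoderm-like cells did, and the log2 ratio was -1.49. Otx2 was thereby not detectable above single reads in the epiblast-like cells, and the few cells that carried it were mesoderm-like.
Zfp42 (chr8:43295063-43306980, minus strand) had reads in 2 epiblast-like cells, B3 with 124 reads (44.3 CPM) and H9 with 12, and in 1 mesoderm-like cell with 13. Esrrb (chr12:86361117-86521628, plus strand), a nuclear receptor of the naive state, had no read in 43 epiblast-like cells and 73 reads (22.9 CPM) in the mesoderm-like cell E6. With 0 of 43 cells, up to 8.22% of such cells could still yield a read, which does not limit expression too low to give a read.

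Levels of different genes were set side by side per length, as reads per 1000 bases of exon and per 1000000 counts (RPKM). In epiblast-like cells Sall4 led at 154 ± 49.5 RPKM, followed by Pou5f1 at 43.9 ± 29.7, Utf1 at 20.6 ± 24.9, Eras at 19.1 ± 23, Nanog at 7.75 ± 12.5 and L1td1 at 6.05 ± 8.15 RPKM. Sall4 stood above Pou5f1 by more than either SD over cells, whereas each later gene in this order lay within 1 SD of the gene before it. In mesoderm-like cells the order began with Sall4 at 61.3 and Pou5f1 at 23.8 RPKM, and the other members were at or below the 3.04 RPKM of Nanog.

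Utf1, Eras, L1td1 and Nanog, grouped after their uneven form had been seen, were read at a level of at least 10 CPM, which lies above the low level of Nanog. At this level Utf1 was present in 22, Eras in 24, L1td1 in 18 and Nanog in 12 of 43 epiblast-like cells, and in 1, 1, 5 and 3 of 48 mesoderm-like cells. In epiblast-like cells 6 cells had none of the 4 genes, 13 had 1, 10 had 2, 13 had 3 and 1 had all 4. Mesoderm-like cells had none in 38 and a single gene in 10. At least 2 of the 4 were therefore present at 10 CPM in 24 of 43 epiblast-like cells (55.8%, 39.9 to 70.9%). In mesoderm-like cells this held for 0 of 48 (up to 7.40%). The 0 depended on the cut. At 5 reads at least 2 were present in 34 of 43 epiblast-like and 4 of 48 mesoderm-like cells. At 1 read the numbers were 40 of 43 and 15 of 48, and at 20 reads 25 of 43 and 0 of 48.

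**Figure D3:**
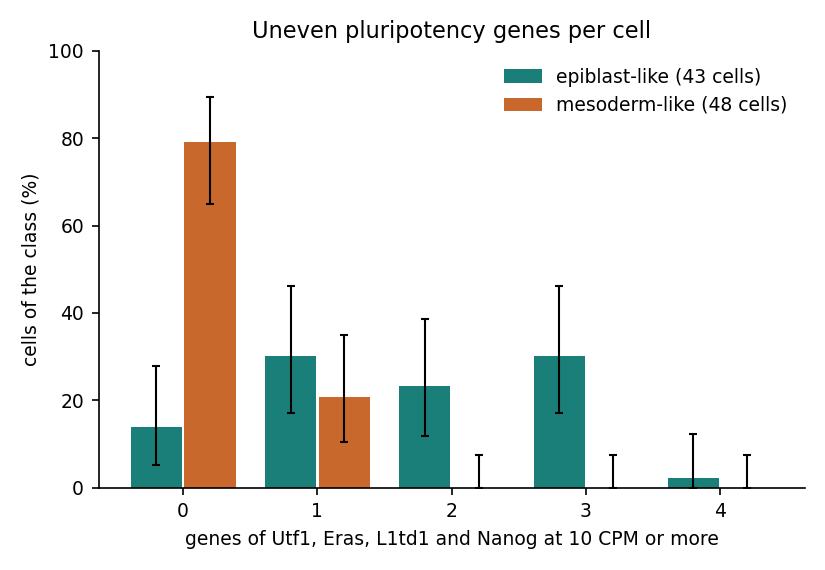
Percent of the cells of each class with 0 to 4 of the genes Utf1, Eras, L1td1 and Nanog at 10 CPM or more. Bars are shares of 43 epiblast-like or 48 mesoderm-like cells and error bars are exact 95% intervals, which cover counting error only. At this level mesoderm-like cells stop at 1 gene, while epiblast-like cells spread from 0 to 4.

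The 4 genes did not mark 1 common group of cells. The most frequent combination was Utf1, Eras and L1td1 without Nanog, in 8 epiblast-like cells, and the cell with all 4 was D7. L1td1 was present in 12 of 22 cells with Utf1 (54.5%, 32.2 to 75.6%) and in 6 of 21 without it (28.6%, 11.3 to 52.2%). It was present in 13 of 24 cells with Eras (54.2%, 32.8 to 74.4%) and in 5 of 19 without (26.3%, 9.15 to 51.2%). Eras was about as frequent with Utf1, in 12 of 22 cells, as without it, in 12 of 21. These intervals overlap in every pair.
Nanog shared its cells with Eras more often than with L1td1. Among the 12 cells with at least 10 CPM of Nanog, Eras was present in 9 (75%, 42.8 to 94.5%), against 15 of 31 of the others (48.4%, 30.2 to 66.9%). Utf1 was present in 6 of these 12 and in 16 of 31. L1td1 was present in 3 of 12 (25%, 5.49 to 57.2%) and in 15 of 31 (48.4%, 30.2 to 66.9%), the opposite direction from Eras, again with overlapping intervals. Of these 12 cells, C1 and H9 lay just under the level, with 9.69 and 9.26 CPM of L1td1. The lower share of L1td1 therefore depends on the cut. T, the Brachyury gene of the primitive streak, was at 10 CPM or more in 6 of the 12 and in 22 of the 31. For the other genes T differed less, with 15 of 22 cells with Utf1 and 13 of 21 without. It was present in 15 of 24 cells with Eras and 13 of 19 without, and in 12 of 18 with L1td1 and 16 of 25 without.

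**Figure D4:**
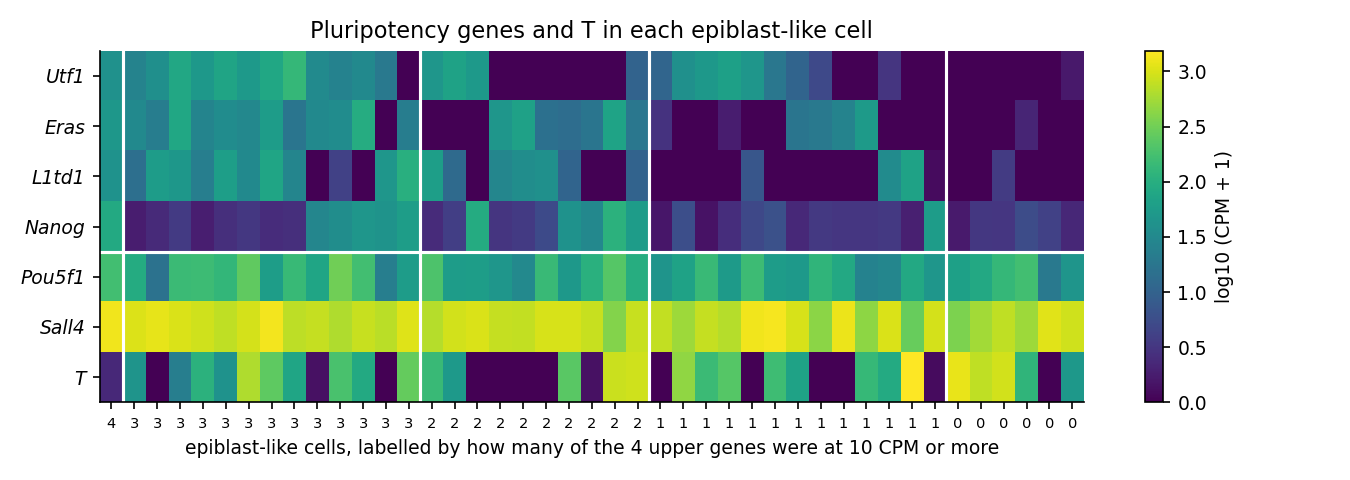
Log10 (CPM + 1) of Utf1, Eras, L1td1, Nanog, Pou5f1, Sall4 and T in each of the 43 epiblast-like cells, ordered by how many of the 4 upper genes were at 10 CPM or more. White vertical lines separate cells with 4, 3, 2, 1 and 0 such genes. The Nanog row is dark in 31 cells and bright in 12, Pou5f1 and Sall4 are filled in every cell, and T is bright in some cells of every group except the single cell with 4.

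Mean Pou5f1 was higher in cells that carried more of these genes. In the 19 epiblast-like cells with 0 or 1 of them it averaged 76.7 ± 44.8 CPM, in the 10 with 2 it averaged 99.8 ± 66.1 CPM and in the 14 with 3 or 4 it averaged 127 ± 83.8 CPM. Each step was smaller than the SD over cells. Mean T went the other way, with 309 ± 460, 218 ± 357 and 124 ± 177 CPM, and again the spread exceeded the steps. Gene by gene, the Spearman rho of T over epiblast-like cells was -0.05 with Utf1, -0.10 with Eras, -0.01 with L1td1 and -0.07 with Nanog. With Pou5f1 it was 0.30, so T did not run against Pou5f1 cell by cell. The number of genes detected per cell rose over the same groups, with medians of 7833, 8322 and 8664. Median total counts were 2587739, 2301404 and 2285232, and the part of these library measures in the result was not tested.

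Single correlations between members were weak over the 43 epiblast-like cells, which share 1 pool and differ in depth, and they are given as Spearman rho of log2 (CPM + 1) without a test. Pou5f1 had a rho of 0.28 with Utf1, 0.26 with Eras, 0.12 with Nanog, 0.07 with L1td1 and -0.18 with Sall4. With T it had 0.30, and with Cdx2, a caudal homeobox gene, 0.45. Sall4 had -0.38 with T and -0.36 with Cdx4. Pou5f1 also moved with measures of the libraries, with -0.46 for total counts, -0.51 for the percent of mitochondrial counts and 0.28 for genes detected, and their part in its level was not tested.
The genes most like Pou5f1 over these cells, of 7700 with reads in at least 50% of them, were Cuedc2 (0.74), Pgam1 (0.73), Gm8210 (0.71), Polr2f (0.69) and Elob (0.65), none of them from the pluripotency lists. Pgam1 is a glycolytic enzyme, Polr2f a subunit of RNA polymerases and Elob an elongin. For Pou5f1, 5% of the genes compared had an absolute rho above 0.42, against 0.32 for Nanog and 0.30 for Sall4. The genes most like Nanog were Gm37760 (0.66), G3bp1 (0.60), Rps6 (0.58), Rpl22 (0.57) and Kxd1 (0.55), and those most like Sall4 were Traf6 (0.58), Sfr1 (0.52), Foxo3 (0.51), 2610021A01Rik (0.51) and Slc31a1 (0.50).

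Other genes of the naive state went in both directions. Of 12 such genes 5 were measured, of which 2 were higher in epiblast-like cells, 2 lower and 1 under 2-fold, and 4 (Klf2, Tbx3, Tcl1 and Fbxo15) had no read in any cell. Beside this and the lists that follow stand the shares over all measured genes, 8.18% higher and 9.55% lower. Klf5, a Krüppel-like factor shared by naive cells and later tissues, was 33.7 ± 39 CPM in epiblast-like cells (range 0 to 147, median 18.9) and 222 ± 162 CPM in mesoderm-like cells (range 0 to 587, median 191), a log2 ratio of -2.68. Fgf4, which epiblast cells secrete and the primitive streak makes again, was 7.56 ± 30.7 and 68.2 ± 86.7 CPM, with reads in 4 of 43 and 27 of 48 cells. The 2 genes called higher, named after their values were seen, were present in few cells. Nr0b1 (DAX1), an orphan receptor that binds OCT4, had reads in 9 epiblast-like cells, with 13 to 545 reads in each, and in 0 of 48 mesoderm-like cells (up to 7.40%). Tfcp2l1 had 177 reads in the epiblast-like cell E5 and next to none elsewhere.

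Genes of the formative and primed epiblast were the better represented list. Of 13 genes 10 were measured, 4 were higher in epiblast-like cells, none was lower and 6 were under 2-fold, with a median log2 ratio of 0.81. Dnmt3b, the de novo DNA methyltransferase that rises after implantation, ranged from 127 to 1698 CPM (median 437, mean 524 ± 282) in epiblast-like and from 0 to 549 CPM (median 173, mean 189 ± 121) in mesoderm-like cells, a log2 ratio of 1.47. Sox3, a partner of OCT4 close to Sox2, had reads in 30 of 43 epiblast-like cells (mean 11 ± 13.4 CPM, range 0 to 59.6, median 7.57) and in 0 of 48 mesoderm-like cells. The other genes called higher, Fgf5 and Tdgf1, which were named after their values were seen, had reads in 4 and 9 of 91 cells. Foxd3 and Gdf3 had no reads.
Among 10 partners and regulators of the network 8 were measured, of which Sox2 was higher, Sall1 and Tcf7l1 were lower and 5 were under 2-fold. Sox2 was 20.2 ± 29.5 CPM in epiblast-like cells (range 0 to 133, median 0.965) and 1.15 ± 5.33 CPM in mesoderm-like cells (range 0 to 37, median 0.284). Tcf7l1, a repressor of pluripotency genes at Wnt targets, was 11.2 ± 15.6 and 78 ± 65.6 CPM, a log2 ratio of -2.69, and Sall1, a relative of Sall4, was 43.5 ± 60.6 and 117 ± 144 CPM, a log2 ratio of -1.40. The relatives Sall1 and Sall4 thus lay on opposite sides of the 2 classes. Dppa2 and Dppa4 had no reads.

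**Figure D5:**
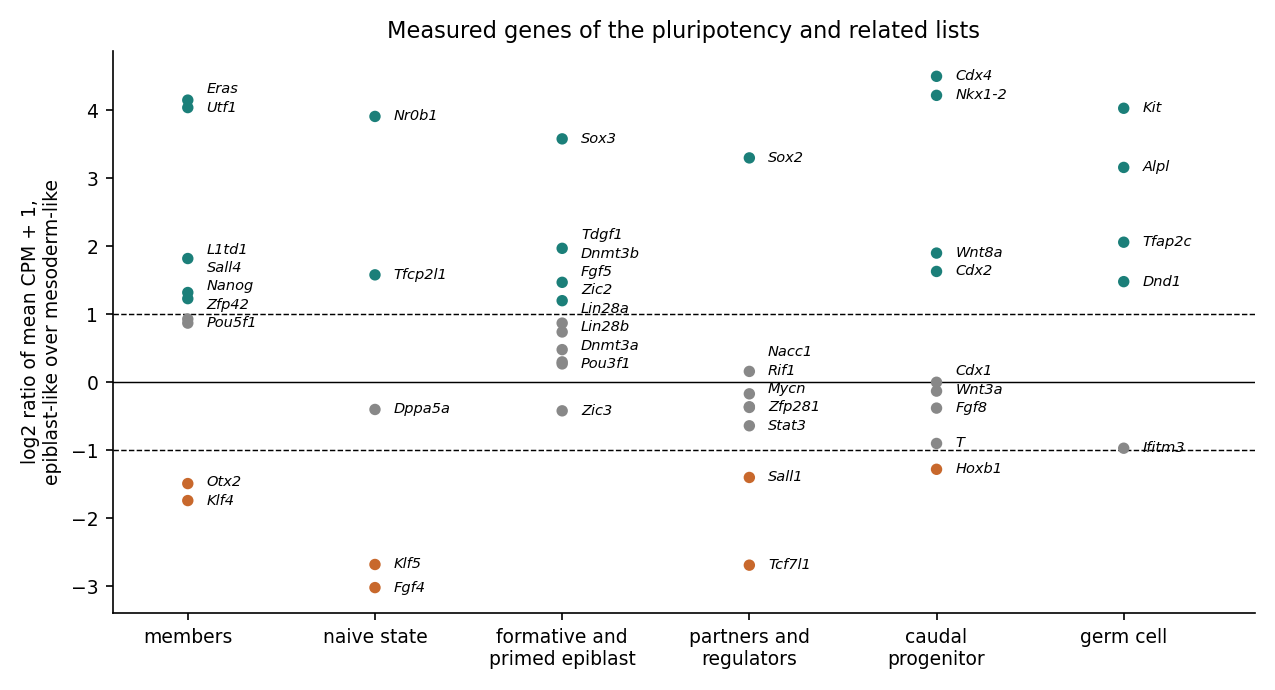
Log2 ratio of mean CPM + 1, epiblast-like over mesoderm-like, of each measured gene of the 10 members and of 5 other lists, 1 point per gene. Dashed lines mark a 2-fold difference, and points are green where higher and orange where lower. Utf1 (4.04) and Eras (4.15) lie far above Pou5f1 (0.87), and Klf5 (-2.68) and Fgf4 (-3.02) lie below the line.

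Of 9 genes of caudal progenitors 4 had the higher mean in the epiblast-like class, Cdx4, Nkx1-2 (which made the classes), Wnt8a and Cdx2, and Hoxb1 was lower. Cdx2 was present at 10 CPM or more in 18 of 22 cells with Utf1 and in 13 of 21 without, and in 9 of 12 cells with Nanog at that level and 22 of 31 without. Cdx4 was at that level in 9 of 22 cells with Utf1 and 9 of 21 without, and in 3 of 12 cells with Nanog and 15 of 31 without. Cells with a caudal gene were thus found both with and without these members.
Germ cell precursors, which also carry Pou5f1, Nanog and Utf1, lie near this region, so their markers were read beside the members. Of 9 germ cell markers 5 were measured and 4 had the higher mean in the epiblast-like class. Kit was 47.1 ± 59 against 1.95 ± 12.4 CPM and Alpl 95.2 ± 85.6 against 9.74 ± 27.7 CPM, both of which pluripotent cells also express, followed by Tfap2c with reads in 8 of 43 and Dnd1 in 22 of 43 cells. The summed level of the 9 markers was 0 to 410 CPM (median 143) in epiblast-like and 0 to 162 CPM (median 31.6) in mesoderm-like cells. The fifth measured marker, Ifitm3, lay in the other direction and under 2-fold, with 12.8 ± 21.9 against 26.1 ± 29.6 CPM, a log2 ratio of -0.97. Prdm1 and Nanos3 had no read in any cell, Prdm14 was found in the mesoderm-like cell B9 alone (102 reads) and Dppa3 in the mesoderm-like cell E12 alone (112 reads).
Kit was at 10 CPM or more in 9 of 12 epiblast-like cells with Nanog at that level and in 15 of 31 without (75%, 42.8 to 94.5%, against 48.4%, 30.2 to 66.9%). Markers of the anterior neural plate had reads in 8 of 258 gene and cell pairs of the epiblast-like class, those of the node and notochord in 3 of 258, of endoderm in 5 of 215, of extraembryonic ectoderm in 5 of 172, of lateral mesoderm in 2 of 172 and of blood and endothelium in 14 of 258. Markers of surface ectoderm had reads in 23 of 129 pairs (17.8%) of the epiblast-like and 18 of 144 (12.5%) of the mesoderm-like class. Among them Dlx5 was higher in epiblast-like cells, with 4.32 ± 12.8 against 0.180 ± 0.914 CPM and reads in 14 of 43 against 2 of 48 cells, and Grhl3 was lower, with 2.50 ± 10.3 against 20 ± 38.3 CPM. The part of these other markers in the levels of the members was not tested.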

How the data were processed

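Single cells of the caudal lateral epiblast were sequenced with the Smart-seq2 protocol, so reads carry no molecular identifiers. The deposited values are counts of reads per gene, made by the authors with HISAT2 on GRCm38 (mm10) and featureCounts, without normalization. The sources used here do not give the versions, the annotation or the strand setting. All 91 cells were used, 0 columns were left out, and 53274 of 53379 identifiers had a symbol.

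Counts were scaled to CPM in Python 3.11.15 with pandas 2.3.3, numpy 2.4.6 and scipy 1.17.1. A gene was measured where 3 or more cells had a read of it, and it was called at a 2-fold difference of mean CPM + 1. Exon lengths and loci came from GENCODE M21 and promoters from RefSeq (GRCm38.p6). Detection was read at 1 read, 5 reads, 10 CPM, 1 read after thinning to 500000 counts and, added after the data were seen, 20 reads. With 1 pool there is no test, p-value or standard error. Intervals are exact Clopper-Pearson at 95% over cells. They cover counting error only, since the cells come from 1 pool and the embryo of each is not named. Depth was 709866 to 4439571 counts. Wells were meant to receive a single cell each, and doublets were not searched for. Simulated counts with known folds were used to test the 2-fold call, and the other steps were not tested in this way.

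The members and lists were chosen with earlier results of these data known. Beside the members and the genes that make the classes, up to 4 genes of each list were named, those with the largest log2 ratio among genes called with reads in at least 50% of cells of the higher class, and the 5 genes most like Pou5f1, Nanog and Sall4. Genes named because a count was small, Ifitm3, the Pou5f1 and Nanog copies and the antisense gene Pcsk1n were chosen after their values were seen.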

Additional observations from a re-analysis of the deposited data

How the results depend on the processing

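The ratios of the 9 measured members kept their sign under every alternative run: median-of-ratios size factors, CPM without mitochondrial counts, another pseudocount, no filter on low counts, thinning, leaving out the highest cell of each class, leaving out the 4 cells within 4-fold of the boundary, and classes from the whole marker score, which moved 0 cells. The marker lists hold Nkx1-2 and Aldh1a2 and were chosen with earlier results known, so the marker score is no independent check of the classes. Pou5f1 stayed at 0.77 to 0.95 on the log2 scale and Sall4 at 1.30 to 1.37, while Utf1 ran from 1.73 to 5.19 and Eras from 1.58 to 6.04 with the pseudocount. With 10 CPM added in place of 1, 3 members were called higher in place of 5 and 0 lower in place of 2, with Nanog at 0.70, L1td1 at 0.99, Klf4 at -0.48 and Otx2 at -0.25, naive genes called higher fell to 1 and formative genes to 2, and over all genes 316 were higher and 445 lower in place of 1476 and 1724; a larger pseudocount shrinks low genes by construction. With 0.1 CPM added, Zfp42 passed the threshold at 2.51. Without the highest cell of each class, naive genes called higher were 1, since Tfcp2l1 rested on 1 cell. Epiblast-like cells with both Pou5f1 and Nanog numbered 43 at 1 read, 29 at 5 reads, 31 after thinning and 12 at 10 CPM or 20 reads. Mesoderm-like cells with both numbered 42 at 1 read, 23 at 5 reads, 24 after thinning, 2 at 10 CPM and 3 at 20 reads. Epiblast-like cells with at least 2 of Utf1, Eras, L1td1 and Nanog numbered 40 at 1 read, 34 at 5 reads and 32 after thinning. They numbered 24 at 10 CPM and 25 at 20 reads. Mesoderm-like cells with at least 2 numbered 15 at 1 read, 4 at 5 reads, 7 after thinning and 0 at 10 CPM or 20 reads. No paired analysis was possible because the cells form 1 group with no replicate numbers. The numbers of cells let a gene without reads still have a read in up to 8.22% of epiblast-like and 7.40% of mesoderm-like cells, expression too low to give a read is not limited by this, and 1 pool gives no spread between embryos.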
